A study of Mus musculus with 18 samples.

Results

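The genes of the cytosolic ribosome were followed across the brains of wild type mice and of mice labelled as lacking estrogen receptor alpha (ERalphaKO) or estrogen receptor beta (ERbetaKO). A gene was taken where an array probe set carried exactly 1 platform symbol and that symbol began with Rpl or Rps and a digit, or was Rplp0, Rplp1, Rplp2 or Rpsa. Rps6k kinases and pseudogene symbols with -ps were left out. The rule found 50 genes, read by 106 probe sets, among 18161 genes named by a single symbol. Each gene was read through the probe set with the highest mean signal, and 46 of the 50 passed the filter on low signal and were tested among 13073 genes. The other 4, Rpl14, Rpl39l, Rpl3l and Rps16, had mean signals of 126, 70.4, 30.9 and 3.46 and were not tested.

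All mice were of the C57BL/6 strain and 8 weeks old, and whole brain was sampled from 3 females and 3 males of each genotype, giving 18 Affymetrix mouse arrays in 6 groups. The allele behind each knockout label, and whether each array came from a separate animal, are not given in the sources used here, so a p-value here weighs a difference against the spread of these samples, which may be partly technical. The deposited values are MAS5 signals, linear intensities that the authors scaled to one trimmed mean of 500.002 per array. Differences are given as log2(signal + 63.63), averaged over the sexes. A gene was called at an adjusted p under 0.05 in a limma fit to all 18 arrays, with Benjamini-Hochberg adjustment over the 13073 genes.

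The estrogen receptor genes did not bear out the labels. The single Esr2 probe set, which reads the gene of estrogen receptor beta, gave 271 ± 98.0 (SD, n = 6) in the ERbetaKO-labelled arrays and 28.7 ± 11.4 in wild type arrays. Of the 3 Esr1 probe sets, which read estrogen receptor alpha, the brightest gave 129 ± 21.6 in the ERalphaKO-labelled and 143 ± 35.9 in wild type arrays. The others were higher under the ERalphaKO label, at 230 ± 52.3 beside 141 ± 50.6 and at 65.0 ± 20.6 beside 38.6 ± 16.4. Where these probe sets lie against the disrupted parts is not known here, so the directions below rest on the labels. The Actb 3' over 5' ratio, a control for RNA quality, ran from 1.17 to 1.23 in wild type, from 1.15 to 1.37 in the ERalphaKO-labelled and from 1.34 to 1.84 in the ERbetaKO-labelled arrays. The signal of Pcp2, a gene of cerebellar Purkinje cells, ran from 117 to 10790 over the wild type arrays (median 3832), from 209 to 7263 over the ERalphaKO-labelled (median 4000.1) and from 225 to 9849 over the ERbetaKO-labelled arrays (median 802). The 12 cerebellar markers tested had a median log2 difference of 0.036 in the first knockout line and −0.87 in the second, where all 12 were negative and none was called. All 10 neuron markers examined passed the filter on low signal. The sum of their signals was 77776 to 99587 in wild type, 61979 to 76288 in the ERalphaKO-labelled and 72968 to 91797 in the ERbetaKO-labelled arrays.

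The cytosolic ribosome is built of a small 40S subunit, which reads the messenger RNA, and a large 60S subunit, which joins amino acids and feeds the growing chain into an exit tunnel. Proteins named Rps belong to the small subunit and proteins named Rpl to the large one, and cells make them in matched amounts with ribosomal RNA. Most of their mRNAs begin at a short run of pyrimidines, the terminal oligopyrimidine tract, through which mTOR signalling and LARP1 set their translation. In neurons ribosomes work in the cell body and also in dendrites and axons.

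The start sites of genes that the results below turn on are shown to let this pyrimidine feature be compared between them. Each line gives 30 bases of RefSeq sequence from GRCm38.p6, 15 before the annotated start and 15 from it on, written 5′ to 3′ on the gene's own strand. Capitals mark the longest run of C and T that lies within or reaches into the 5 bases on either side of the start.
Rps6, chr4:86857353-86857382, minus strand: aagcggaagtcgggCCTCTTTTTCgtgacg
Rpl38, chr11:114668565-114668594, plus strand: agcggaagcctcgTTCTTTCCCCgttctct
Rplp2, chr7:141447636-141447665, plus strand: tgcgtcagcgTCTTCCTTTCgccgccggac
Rps24, chr14:24490663-24490692, plus strand: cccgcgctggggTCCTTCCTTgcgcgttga
Rpl22l1, chr3:28805493-28805522, plus strand: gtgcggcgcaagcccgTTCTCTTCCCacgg
Rps27l, chr9:66946071-66946100, plus strand: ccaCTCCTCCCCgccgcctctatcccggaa
Rps24, other start, chr14:24490738-24490767, plus strand: tccggcgccgtagCCatcatggtgagtctc
Rps27l, other start, chr9:66946398-66946427, plus strand: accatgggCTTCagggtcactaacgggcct
Rplp0, chr5:115559452-115559481, plus strand: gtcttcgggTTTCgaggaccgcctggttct
Rpl41, chr10:128549154-128549183, minus strand: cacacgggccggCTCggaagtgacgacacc
Rps15, chr10:80292416-80292445, plus strand: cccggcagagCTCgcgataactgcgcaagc
Rpl7l1, chr17:46782642-46782671, minus strand: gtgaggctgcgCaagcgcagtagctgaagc
The first 6 lines show a run of at least 9 pyrimidines and the others a run of at most 4. A marked run can end before the annotated start, as in the first Rps27l line, and then lies outside the annotated transcript. Rps24 and Rps27l have 2 annotated starts each, 1 of either kind, so their place depends on the start, and the start used in brain may differ from those annotated.

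RefSeq held 52 starts for 44 of the 50 genes. By the same rule, which also counts runs that end just before the start, a run of at least 6 pyrimidines lay at 44.2% of these starts. The share was 20.1% of 21262 starts of protein-coding genes. A run of at least 8 lay at 34.6% against 9.48%, and the first transcribed base was C at 28.8% against 13.8%. In the 300 bases from 250 before to 50 after the start, CCGGAAG on either strand occurred in 40.4% of the ribosomal protein promoters and in 11.6% of all. TATAAA occurred in 11.5% against 12.6% and CACGTG in 9.62% against 7.84%. These motifs do not overlap one another in their letters, and a match describes the sequence only.

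Each read through its brightest probe set, few ribosomal protein genes passed the test in either knockout line. Of the 8 that did in any comparison 4 were paralogs of standard ribosomal proteins. In ERalphaKO-labelled against wild type brains 4 of the 46 were called, 1 higher (Rpl7l1) and 3 lower (Rpl41, Rps24 and Rps15). That is 8.7%, beside 6.68% of all genes tested, of which 3.08% were called higher and 3.6% lower. In ERbetaKO-labelled against wild type brains only Rps27l was called, and it was lower, which is 2.17% beside 7.49% of all genes (2.89% higher, 4.6% lower). Between the knockout lines 4 were called, each higher in ERalphaKO-labelled brains (Rps27l, Rps4l, Rplp0 and Rpl22l1), which is 8.7% beside 15.3% of all genes (6.27% higher, 9% lower). The counts of called members were thus near or below those of the whole array.

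The differences were small. Against wild type, 34 of the 46 genes lay within 0.25 log2 units in the ERalphaKO-labelled and 44 in ERbetaKO-labelled brains, and 39 did so between the lines. Differences of at least 0.5 were seen for Rps27 and Rps4l alone. None of the 46 had 6 values wholly above or wholly below those of the other genotype in any of the 3 comparisons. Of all genes tested, 2.03% lay wholly above and 2.62% wholly below wild type in ERalphaKO-labelled arrays, 4.65% together. In ERbetaKO-labelled arrays the shares were 1.64% and 2.44%, 4.08% together, and between the lines 2.28% and 3.55%, 5.83% together. At an unadjusted p under 0.05 were 14, 4 and 10 of the 46, in the order ERalphaKO-labelled against wild type, ERbetaKO-labelled against wild type and between the lines. Those counts are 30.4%, 8.7% and 21.7%, beside 23.3%, 25.4% and 32.1% of all genes.

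**Figure D1:**
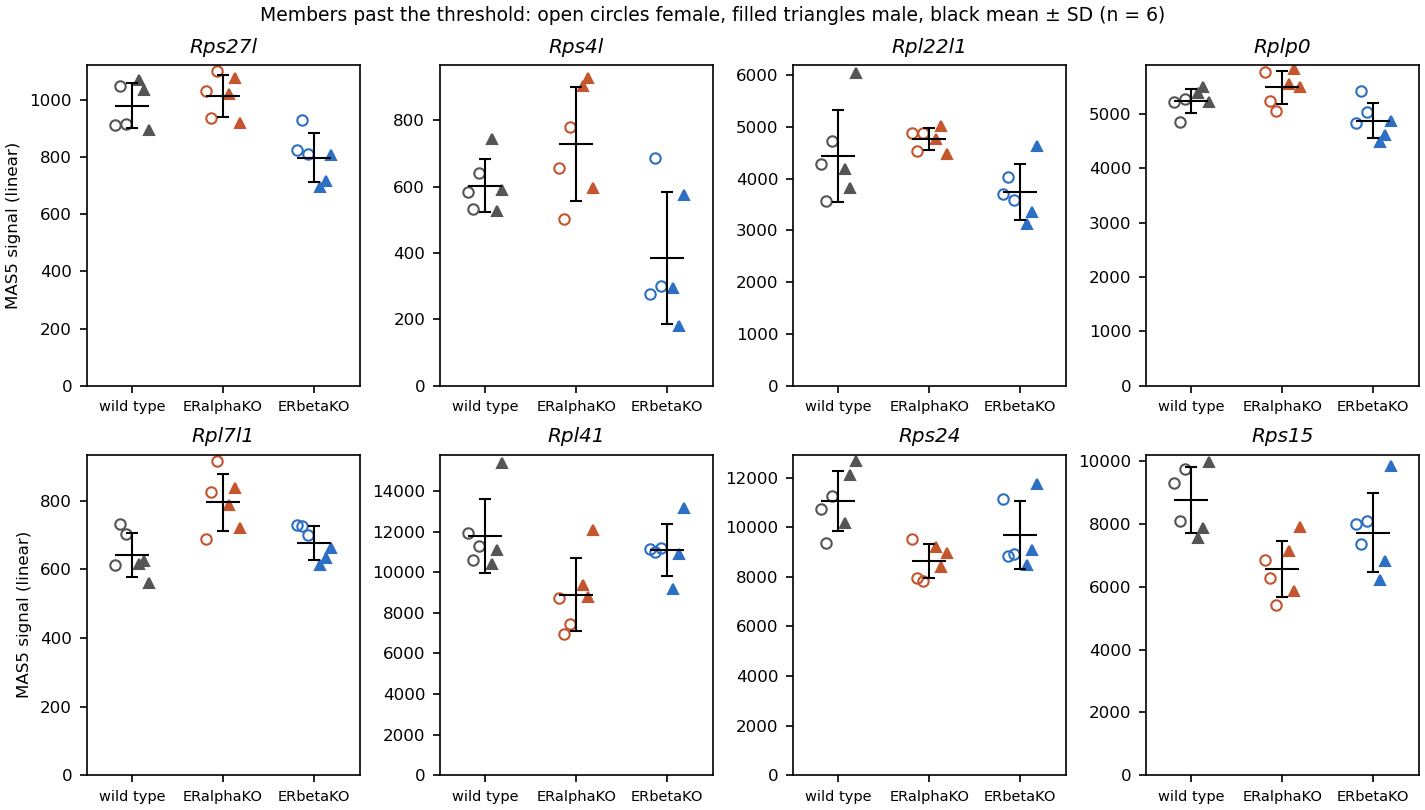
MAS5 signal (linear axis from 0) of the 8 ribosomal protein genes called in at least 1 genotype comparison, for wild type, ERalphaKO and ERbetaKO arrays. Circles are females, triangles males, and black bars the mean ± SD (n = 6); the groups overlap for every gene, and 4 of the 6 ERbetaKO arrays lie at 181 to 299.6 for Rps4l.

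Rps27l was the member with the smallest adjusted p in the comparison of the lines. It encodes a close paralog of the small-subunit protein Rps27 and is known as a target of p53. Its signal was 895, 975 and 1067 (lowest, median and highest of 6 arrays) in wild type, 919, 1025 and 1100.1 in the ERalphaKO-labelled and 696, 808 and 930.3 in the ERbetaKO-labelled arrays. Of the 6 ERbetaKO-labelled values, 5 lay below every wild type value, while wild type and ERalphaKO-labelled values were mixed. The log2 difference was −0.28 ± 0.071 (SE) in ERbetaKO-labelled against wild type brains (limma adjusted p = 0.0272) and 0.33 ± 0.071 in ERalphaKO-labelled against ERbetaKO-labelled brains (limma adjusted p = 0.00882). It was 0.049 ± 0.071 in ERalphaKO-labelled against wild type brains (limma adjusted p = 0.726).

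The gene was read by 3 probe sets, and they did not give the same answer. The second gave 803 to 870.5 in wild type, 772 to 1011 in the ERalphaKO-labelled and 640 to 715 in the ERbetaKO-labelled arrays, so that here the ERbetaKO-labelled values lay wholly below both other groups. The third gave 722 to 899 in ERbetaKO-labelled and 734 to 895 in wild type arrays, a difference of −0.063 ± 0.078 in a fit of every probe set. The first and the third are of the type marked _x_at, whose probes can also bind related transcripts, so part of their signal may come from Rps27. The contrast of the lines passed the threshold in all 34 alternative analyses (0.24 to 0.44 log2 units, limma adjusted p from 0.00144 to 0.0325), while that of ERbetaKO-labelled against wild type missed it in 10, 6 of them with 1 array left out.

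Rps27 itself, a small-subunit protein with a zinc finger, was read only by a dim probe set of its own. Its signal was 266, 395 and 950.4 in wild type, 193, 325 and 398 in the ERalphaKO-labelled and 299.5, 425 and 983 in the ERbetaKO-labelled arrays. The highest values of wild type and the ERbetaKO-labelled brains both came from a male 3 array, and the groups overlapped. The difference was −0.53 ± 0.26 in ERalphaKO-labelled against wild type brains and did not pass the test (limma adjusted p = 0.224). Its residual SD of 0.504 was the largest among the 46.

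Rps4l gave the largest difference between the lines. It is related to the small-subunit protein gene Rps4x, and RefSeq lists it as a transcribed pseudogene. Its signal was 527, 587 and 744 in wild type, 503, 718 and 928 in the ERalphaKO-labelled and 181, 297 and 687 in the ERbetaKO-labelled arrays. The ERbetaKO-labelled arrays fell apart into 4 between 181 and 299.6 and 2, female 2 and male 3, at 687 and 576. The log2 difference between the lines was 0.90 ± 0.22 (limma adjusted p = 0.0163), higher in ERalphaKO-labelled brains in 6 of 6 arrays when set against the ERbetaKO-labelled median. Against wild type, ERbetaKO-labelled brains differed by −0.67 ± 0.22, which did not pass the threshold (limma adjusted p = 0.0754). Without female 2 that difference was −0.85 and without male 3 it was −0.86, and both passed (limma adjusted p = 0.0241 and 0.021). These 2 arrays held the values nearest wild type, so leaving out either one could only enlarge the fall. Of the 34 alternatives 29 left the difference from wild type uncalled, and of 18 fits without 1 array only these 2 passed. The contrast of the lines passed in all 34 alternatives, at 0.71 to 1.42 log2 units (limma adjusted p from 0.00221 to 0.0419). Female 2 had the highest Actb ratio of all arrays, 1.84, and male 3 one of 1.45. Adjusted for that ratio, the difference from wild type was −1.43 (limma adjusted p = 0.0483). The ratios did not overlap, at 1.17 to 1.23 in wild type and 1.34 to 1.84 in the ERbetaKO-labelled arrays. Ratio and genotype therefore cannot be told apart here, and the adjusted value reaches beyond the ratios that the genotypes share.

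Rps4x, the X-linked small-subunit protein near the decoding side of the ribosome, did not pass in any comparison. Its signal was 6185, 6872 and 8621 in wild type, 6425, 7102.5 and 7554 in the ERalphaKO-labelled and 5893, 6634 and 8822 in the ERbetaKO-labelled arrays. All 3 groups overlapped, with differences from wild type of −0.030 ± 0.096 and −0.062 ± 0.096 (limma adjusted p = 0.887 and 0.725).

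Rpl22l1 encodes a paralog of the large-subunit protein Rpl22, with which it is known to cross-regulate. Its signal was 3564, 4236 and 6041 in wild type, 4474, 4822 and 5022 in the ERalphaKO-labelled and 3115, 3639.6 and 4637 in the ERbetaKO-labelled arrays. The ERalphaKO-labelled values were closely grouped, and 4 of the 6 lay above every ERbetaKO-labelled value. The difference between the lines was 0.35 ± 0.11 (limma adjusted p = 0.0457), a call that 17 of 34 alternatives lost, 12 with 1 array left out. Rpl22 gave 3801, 4163 and 4522 in wild type, 3842, 4128 and 4368.5 in the ERalphaKO-labelled and 3620.2, 3837 and 3962 in the ERbetaKO-labelled arrays. It did not pass between the lines, at 0.11 ± 0.058 (limma adjusted p = 0.191), although 5 of 6 ERalphaKO-labelled values lay above the highest ERbetaKO-labelled one.

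Rpl7l1, a paralog of the large-subunit protein Rpl7, was the member called higher in ERalphaKO-labelled than in wild type brains. Its signal was 559, 620.3 and 731 in wild type, 689, 805 and 917 in the ERalphaKO-labelled and 612, 681 and 729.97 in the ERbetaKO-labelled arrays. Of the 6 ERalphaKO-labelled values, 4 lay above every wild type value. The difference was 0.28 ± 0.072 (limma adjusted p = 0.0291) against wild type and 0.21 ± 0.072 against ERbetaKO-labelled brains (limma adjusted p = 0.0579). The other 2 probe sets gave 0.13 ± 0.087 and 0.058 ± 0.10 against wild type, and the call was lost in 10 of 34 alternatives, 6 of them with 1 array left out.

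The 4 paralogs tested, Rpl7l1, Rpl22l1, Rps27l and Rps4l, had a median difference of 0.17 in the ERalphaKO-labelled and −0.26 in ERbetaKO-labelled brains against wild type, and of 0.34 between the lines. All 4 were positive between the lines and 3 were called. With quantile normalization the median between the lines was 0.34 and 3 were called, where 6.35% of all genes were called higher and 8.7% lower. With median scaling it was 0.45 and all 4 were called, where 14.3% of all genes were called higher and 4.21% lower. The medians of all genes in that comparison were −0.019, −0.011 and 0.088 under the 3 scalings. The paralogs were singled out by their names with earlier results in view, so this is a description. Rpl39l and Rpl3l, paralogs expressed mainly outside brain, did not exceed 152 and 87.9 on any array. Rps19bp1 meets the symbol rule but encodes a protein that binds Rps19 and is no part of the ribosome. It gave 404, 454.5 and 500.4 in wild type arrays and differed by −0.003 and 0.081 in ERalphaKO-labelled and in the ERbetaKO-labelled brains.

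The 41 standard ribosomal proteins lay a little below wild type in both lines as deposited, and this depended on the scaling and on the arrays used. Their median difference was −0.16 in ERalphaKO-labelled brains, with 3 called lower and none higher, and −0.10 in ERbetaKO-labelled brains, with none called. The medians of all genes tested were −0.029 and 0.005. With quantile normalization, which gives every array the same distribution of signals, the medians of the 41 became 0.039 and −0.018, beside −0.034 and −0.009 for all genes. In ERalphaKO-labelled brains 6 of the 41, and 7 of all 46 members, were then called higher and 1 lower, which for the 46 is 15.2% and 2.17% beside 2.81% and 3.61% of all genes. With median scaling they were −0.17 and −0.24, and the median of all genes moved with it to −0.044 and −0.116. The direction for the standard proteins in ERalphaKO-labelled brains therefore reversed with the quantile scaling. In the ERbetaKO line the median of all 46 members turned from −0.103 to 0.048 on arrays with a Pcp2 signal of at least 500. These were 11 of the 18, and of the ERbetaKO-labelled arrays only female 1, male 2 and male 3. ERbetaKO-labelled male 3 had the highest median of the members in its genotype. Left out were wild type female 3 and male 3, the highest wild type arrays, so the change rests on few arrays.

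**Figure D2:**
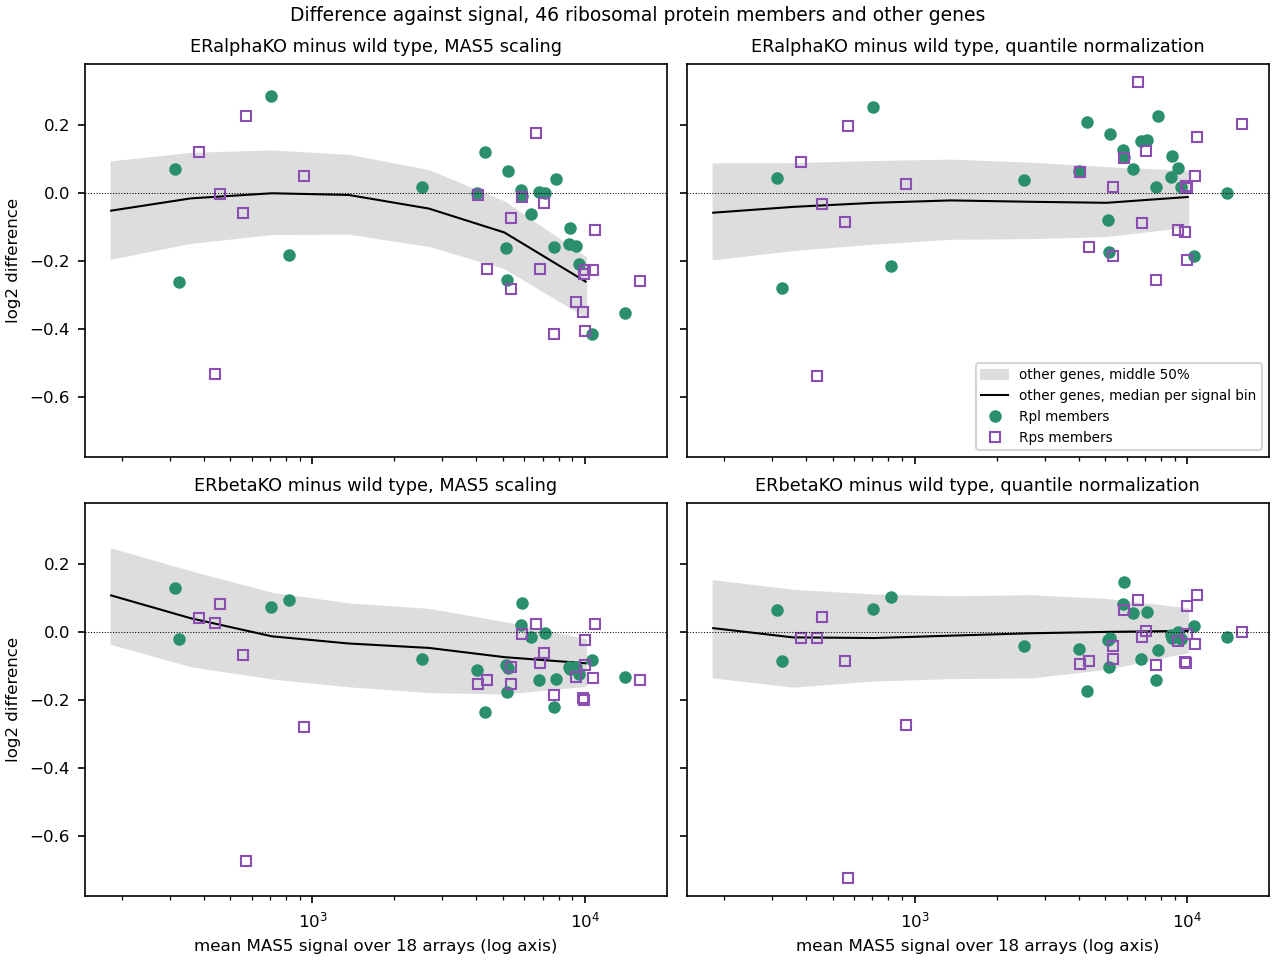
Log2 difference from wild type against mean MAS5 signal (log axis) for the 46 tested ribosomal protein genes, Rpl as filled circles and Rps as open squares, in ERalphaKO (top) and ERbetaKO (bottom) arrays. The line and band are the median and the 25th to 75th percentile of all other genes in bins of signal; as deposited (left) the genes of at least 8000 in ERalphaKO arrays had a median of −0.23 beside −0.26 for other genes, and after quantile normalization (right) 0.019 beside −0.012.

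The ribosomal proteins are among the genes of highest signal on these arrays, and the fall followed signal. In ERalphaKO-labelled brains the 14 members with a mean signal of at least 8000 were all negative, with a median of −0.23. The 169 other genes of that range had a median of −0.26, and 95.9% were negative. Between 4000 and 8000 the 21 members had a median of −0.011 and 544 other genes −0.116, and below 4000 the 11 members had 0.017 and the other genes −0.021. After quantile normalization the 14 brightest members had a median of 0.019, with 4 negative, and other genes of that range −0.012. In ERbetaKO-labelled brains the same brightest members had −0.116 and other genes −0.092, which became −0.012 and 0.003. The bounds of 4000 and 8000 were chosen after the data were seen.

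This pattern ran with features of whole arrays. The highest signal on an array was 17425 to 24911 in wild type and 12717 to 20932 in ERalphaKO-labelled arrays. On ERalphaKO-labelled female 2, female 3 and male 1 it was the signal of the member Rps29, at 13486, 12717 and 15771. There the highest signal was no feature apart from the members. Medians of bright genes other than members ran from −0.16 to 0.23 in wild type and from −0.47 to −0.13 in ERalphaKO-labelled arrays. The array with the lowest median of the 14 brightest members, ERalphaKO-labelled female 3 at −0.45 from the wild type mean, also had the lowest median of other bright genes, −0.47, and the highest Actb ratio of its genotype, 1.37. The array with the highest median in that genotype, male 3 at −0.010, had the lowest ratio, 1.15. The other genotypes did not follow this order: wild type male 3 had the highest ratio of its group, 1.23, and the highest median, 0.29. ERbetaKO-labelled female 2, at a ratio of 1.84, had −0.19, and male 3, at 1.45, had 0.19. The summed neuron markers lay wholly below wild type in ERalphaKO-labelled arrays. The median log2 difference of these markers was −0.32 with 2 of 10 called, where 6.68% of all genes were called. It became −0.10 with none called after quantile normalization. Medians of astrocyte, microglia and endothelial markers were −0.19, −0.18 and −0.15 in the ERalphaKO line and −0.35, −0.24 and −0.089 in the ERbetaKO line. Oligodendrocyte markers had 0.022 and −0.25. Adjusted for the Actb ratio, the median of the 46 was −0.116, beside −0.106 without it, and none was called. The part of signal range and of cell type markers in the lower values was not tested, and in whole tissue fewer cells of a type and less RNA per cell cannot be told apart.

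**Figure D3:**
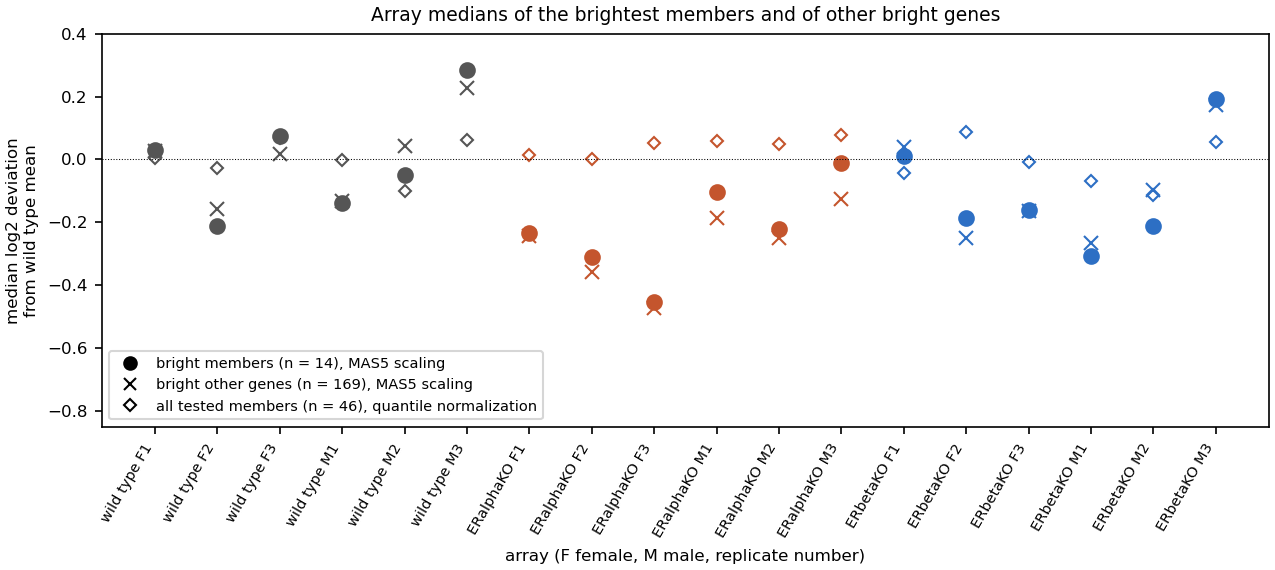
Median log2 deviation from the wild type mean on each of the 18 arrays for the 14 brightest ribosomal protein genes (circles), 169 other bright genes (crosses) and all 46 tested members after quantile normalization (diamonds). Circles and crosses move together from array to array, from −0.45 and −0.47 on ERalphaKO female 3 to 0.29 and 0.23 on wild type male 3, while the diamonds stay between −0.11 and 0.09.

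Within each genotype the arrays differed by more than the genotypes did. The median deviation of all 46 members ran from −0.15 to 0.21 over wild type, from −0.27 to 0.034 over ERalphaKO-labelled and from −0.27 to 0.18 over ERbetaKO-labelled arrays. Wild type male 3 and ERbetaKO-labelled male 3 were the highest of all. After quantile normalization the ranges were −0.10 to 0.068, 0 to 0.078 and −0.11 to 0.088. The residual SD of the members had a median of 0.172, beside 0.183 for all genes and 0.156 for other genes with a signal of at least 4000. The least variable member was Rplp0, at 0.068, followed by Rpl22 at 0.080.

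Among the 20 standard small-subunit proteins 18 were negative in ERalphaKO-labelled brains, with a median of −0.23 as deposited and 0.016 after quantile normalization. Rps24, a protein of the 40S body needed to process the precursor of 18S rRNA, gave 9378, 11001 and 12698 in wild type, 7831, 8676.5 and 9537 in the ERalphaKO-labelled and 8465, 8989 and 11734 in the ERbetaKO-labelled arrays. In ERalphaKO-labelled brains 5 of 6 values lay below every wild type value. The difference was −0.35 ± 0.095 (limma adjusted p = 0.0392) and shrank to −0.12 after quantile normalization, where it did not pass. Of its other probe sets, 3 of mean signal above 4000 gave −0.13, −0.018 and 0.097, so a fall of this size was seen on 1 of 4 such probe sets. The call was lost in 16 of 34 alternatives, 9 of them with 1 array left out. All 4 bright probe sets are of the type _x_at, and the fit without that type was among those that lost the call. It read the gene through a dim probe set, at −0.68.

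Rps15, a protein of the 40S head close to the decoding site, gave 7558, 8700.4 and 9988 in wild type, 5412, 6564 and 7899 in the ERalphaKO-labelled and 6228, 7686 and 9865 in the ERbetaKO-labelled arrays. Here too 5 of 6 ERalphaKO-labelled values lay below every wild type value. The difference was −0.41 ± 0.11 (limma adjusted p = 0.0401). It was the one member called lower both as deposited and after quantile normalization, where it was −0.26 (limma adjusted p = 0.0392). The second probe set gave −0.19 ± 0.12 and was not called, and 13 of 34 alternatives lost the call, 8 with 1 array left out.

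Rpsa, which is also the laminin receptor, and Rps6, the substrate of S6 kinase, were not called. Rpsa gave 5105, 5506.5 and 7014 in wild type, 4429, 4725.5 and 5316 in the ERalphaKO-labelled and 4414, 5179 and 7050.1 in the ERbetaKO-labelled arrays. The ERalphaKO-labelled values lay in the lower range, 4 of them below all wild type values, at −0.28 ± 0.11 (limma adjusted p = 0.131). Rps6 was read by a dim probe set at 505, 577 and 649 in wild type, 424, 551 and 694 in the ERalphaKO-labelled and 493, 530.3 and 632 in the ERbetaKO-labelled arrays. Its groups overlapped throughout, with −0.058 ± 0.084 and −0.068 ± 0.084. Rps25, needed for initiation on some viral mRNAs, gave 0.12 ± 0.091 and 0.042 ± 0.091, and Rps9, a protein near the mRNA entry, gave −0.005 ± 0.068 and −0.15 ± 0.068 (limma adjusted p = 0.979 and 0.167).

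Among the 21 standard large-subunit proteins the median was −0.10 in both lines, and 1 was called in ERalphaKO-labelled brains. That was Rpl41, the smallest of the ribosomal proteins, at the interface of the subunits. It gave 10395, 11208 and 15376 in wild type, 6945, 8750.3 and 12086 in the ERalphaKO-labelled and 9180.2, 11066 and 13179 in the ERbetaKO-labelled arrays. Of the ERalphaKO-labelled values 5 lay below all wild type values and male 3 lay among them. The difference was −0.41 ± 0.11 (limma adjusted p = 0.0372), and −0.19 after quantile normalization, where it did not pass. A second bright probe set gave −0.34 ± 0.13 and was not called. Both are of the type _x_at, and the gene's probe set of another type was too dim to be tested. Of 33 alternatives 14 lost the call, 8 with 1 array left out. In ERbetaKO-labelled brains the difference was −0.081 ± 0.11.

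The acidic stalk, which recruits elongation factors to the ribosome, is built on Rplp0 and carries Rplp2. Rplp0, often used as a reference gene, gave 4846.5, 5247.5 and 5499.6 in wild type, 5042, 5526 and 5824 in the ERalphaKO-labelled and 4485, 4847 and 5414 in the ERbetaKO-labelled arrays. All 6 ERalphaKO-labelled values lay above the ERbetaKO-labelled median, and 4 above its highest value. The difference between the lines was 0.17 ± 0.054 (limma adjusted p = 0.0455), a call lost in 19 of 34 alternatives, 13 with 1 array left out. Rplp2 gave 6915, 7952 and 9450.1 in wild type, 7087, 8131 and 9586 in the ERalphaKO-labelled and 6591, 7003 and 8899.9 in the ERbetaKO-labelled arrays. It was not called as deposited, at 0.042 ± 0.098 in ERalphaKO-labelled brains. After quantile normalization Rplp0 and Rplp2 were called higher in ERalphaKO-labelled than in wild type brains, at 0.17 and 0.23 (limma adjusted p = 0.049 and 0.0408). They were among 7 members called higher there, so this was not particular to the stalk. Smaller adjusted p were seen for Rps7, Rps29, Rps20 and Rpl7, named after their values were seen (limma adjusted p = 0.0107, 0.0107, 0.0188 and 0.0237). Those of Rps29, Rps20 and Rpl7 came from probe sets of the type _x_at.

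Rpl38, known for its part in translating Hox mRNAs in the embryo, gave 13033, 15600 and 19382 in wild type, 10495, 12200 and 13552 in the ERalphaKO-labelled and 11806, 13332 and 18172 in the ERbetaKO-labelled arrays. All 6 ERalphaKO-labelled values lay below the wild type median, 4 of them below the lowest wild type value. The difference of −0.35 ± 0.11 missed the threshold (limma adjusted p = 0.0598) and was 0 after quantile normalization. Its only probe set is of the type _x_at. Rpl39, which lines the exit tunnel, gave 739, 842 and 917 in wild type, 637, 725 and 898 in the ERalphaKO-labelled and 700.3, 884 and 1177 in the ERbetaKO-labelled arrays. Its difference between the lines, −0.28 ± 0.092, also missed the threshold (limma adjusted p = 0.0519). Rpl11, which carries 5S rRNA and binds Mdm2 when free, gave 5012.5, 5728 and 6432 in wild type, 4860.1, 5751.5 and 6621 in the ERalphaKO-labelled and 5499.3, 5858 and 7243 in the ERbetaKO-labelled arrays. These values overlapped fully, at −0.009 ± 0.087 and 0.085 ± 0.087.

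Groups by place in the ribosome are given by counts and medians, beside −0.029 for all genes in ERalphaKO-labelled brains. After quantile normalization that median of all genes was −0.034. Of all genes in these brains 3.08% were called higher and 3.6% lower as deposited, and 2.81% and 3.61% after quantile normalization. The 4 tested proteins of the exit tunnel had a median of −0.17 with all 4 negative and none called, and −0.031 with 2 positive after quantile normalization. The 4 of the mRNA channel had −0.27 with 1 called lower, and −0.099 with 1 called higher and 1 lower after quantile normalization. The 8 of the 40S body and platform had −0.20 with 1 called lower, and −0.10 with 1 called higher. The 11 tested genes that are mutated in Diamond-Blackfan anaemia, a failure of red cell production, had −0.22 with 1 called lower, Rps24, and 0.020 with 2 called higher. In ERbetaKO-labelled brains none of these groups had a called member, where 7.49% of all genes were called.

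**Figure D4:**
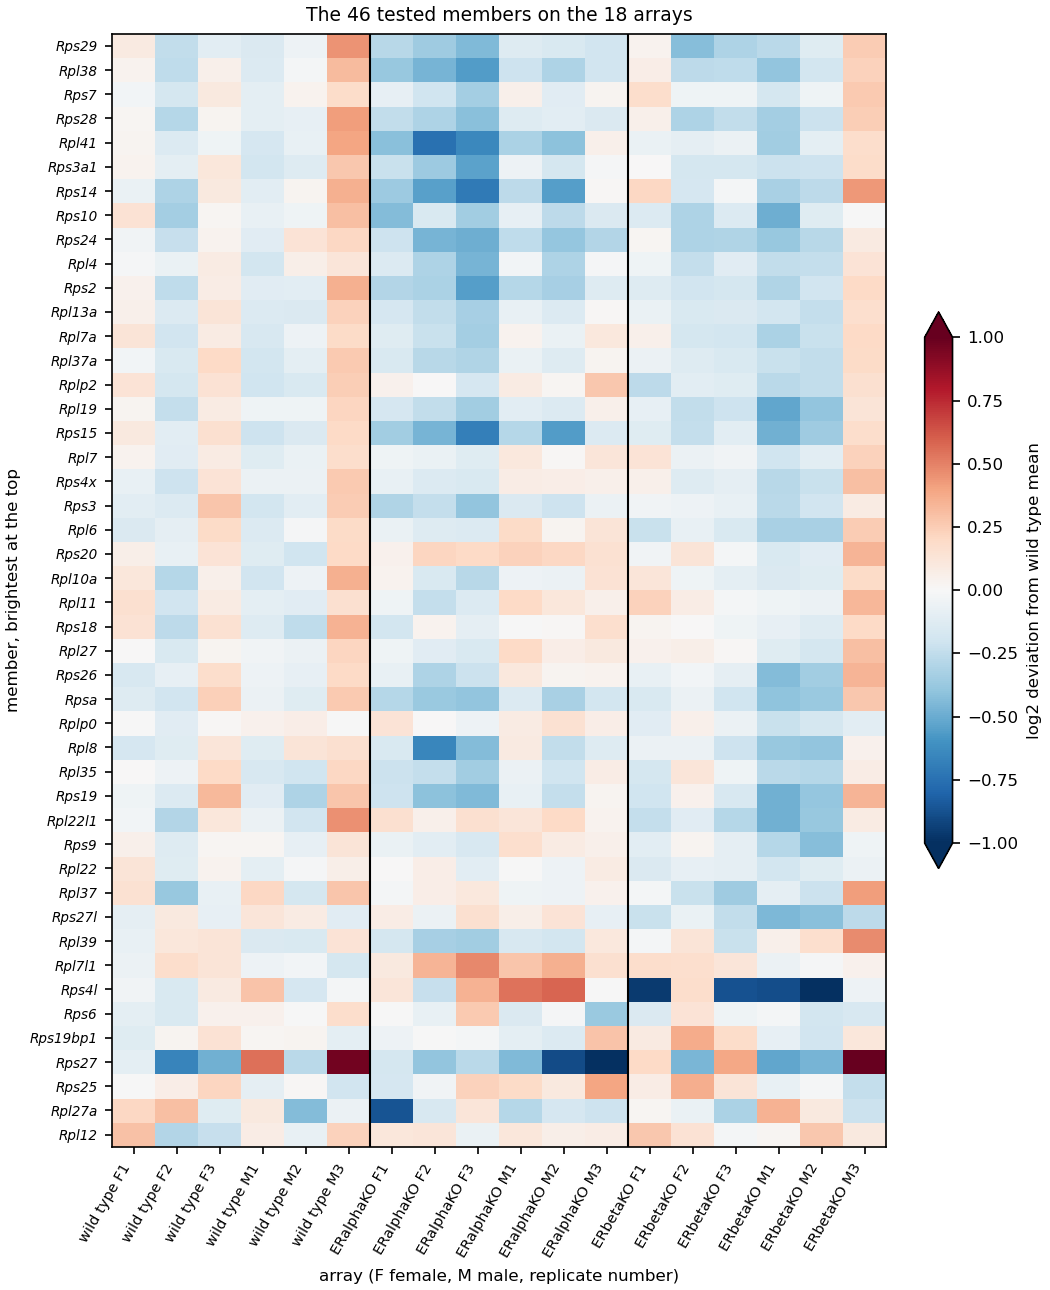
Log2 deviation from the wild type mean for each of the 46 tested ribosomal protein genes (rows, highest mean signal at the top) on each of the 18 arrays (columns; black lines part the genotypes). Whole columns are red (wild type male 3, ERbetaKO male 3) or blue (ERalphaKO female 3), and Rps4l is dark blue on 4 of 6 ERbetaKO arrays.

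No member passed the test for a response that differed between the sexes. The interaction of genotype and sex was called for 0 of the 46 genes and for 0 of all genes in limma, in both lines. At an unadjusted p under 0.05 stood 3 and 0 members and 677 and 444 of all genes, for ERalphaKO-labelled and the ERbetaKO-labelled brains. The members leaned one way in the ERalphaKO line, where the interaction (male minus female difference) was positive for 39 of 46, with a median of 0.136 beside −0.006 for all genes. With quantile normalization 32 were positive and the median was 0.087, beside −0.004 for all genes. Array medians of other bright genes ran from −0.47 to −0.24 in ERalphaKO-labelled females and from −0.25 to −0.13 in males. In wild type they ran from −0.16 to 0.027 and from −0.13 to 0.23. Whether the lean went beyond signal was not tested. In the ERbetaKO line 17 of 46 were positive, with a median of −0.084 beside −0.003. With quantile normalization 19 were positive, at −0.042 beside −0.013, and with median scaling 2, at −0.204 beside −0.112. The member with the smallest p was Rps27 in ERalphaKO-labelled brains, where the male difference was lower than the female one by 1.33 ± 0.51 log2 units, so the interaction was −1.33 (limma adjusted p = 0.899). In ERbetaKO-labelled brains it was Rpl39, at 0.38 ± 0.19 (limma adjusted p = 1).

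Many ribosomal protein transcripts could not be assigned to 1 gene, because processed pseudogenes share their sequence. A further 110 probe sets name a ribosomal protein together with other symbols, and 31 ribosomal protein symbols, among them Rplp1, Rpl5, Rpl3 and Rpl10, occur only there. Of these 110, 98 passed the filter. In a fit of every probe set, 4 were higher and 5 lower in ERalphaKO-labelled brains (median −0.073), where 9.14% of all probe sets were called. In ERbetaKO-labelled brains 2 were higher and 2 lower (median −0.070, 7.8% of all called), and between the lines 3 were higher and 2 lower (median 0.006, 15.5% of all called). Of the 91 tested probe sets of the members themselves, 1 was higher and 8 lower in ERalphaKO-labelled brains, 9.89% in all. Those lower included further probe sets of Rpl13a, Rps28, Rps18 and Rps29, whose brightest probe sets were not called. In ERbetaKO-labelled brains 2 were lower (2.2%), and between the lines 5 were higher and 2 lower (7.69%). Probe sets of 1 gene often differed: of 20 members with several tested probe sets, all had the same sign in 9, 9 and 12 for the 3 comparisons.

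Other genes of protein synthesis are given by their counts, to be read beside the shares of all genes given above. Of 10 elongation factors 2 were lower in ERalphaKO-labelled brains, Eef1a1 at −0.44 ± 0.12 and Eef1a2 at −0.37 ± 0.090 (limma adjusted p = 0.0365 and 0.0238), both genes that deliver tRNAs. That is 20% of a short list beside 6.68% of all genes. In ERbetaKO-labelled brains 1 was lower, the translocase gene Eef2 at −0.40 ± 0.069 (limma adjusted p = 0.0039). None of the 10 was called between the lines. After quantile normalization 0 of the 10 were called in the ERalphaKO-labelled and 2 lower in ERbetaKO-labelled brains. Of 34 initiation factors 1 was higher and 3 lower in ERalphaKO-labelled brains, with Eif5 at −0.40 ± 0.057 (limma adjusted p = 0.00151), and 2 were lower in ERbetaKO-labelled brains, with Eif1ax at −0.48 ± 0.086 (limma adjusted p = 0.00476). These are 11.8% and 5.88%, beside 6.68% and 7.49% of all genes. Between the lines 7 were higher and 2 lower in ERalphaKO-labelled brains, 26.5% beside 15.3% of all genes, and the eIF3 subunits Eif3k, Eif3a and Eif3c were higher by 0.41, 0.27 and 0.33.

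Of 70 assembly factors 1 was higher in each line, Riok1 at 0.35 ± 0.077 in the ERalphaKO-labelled and Rpf1 at 0.41 ± 0.11 in ERbetaKO-labelled brains (limma adjusted p = 0.016 and 0.0315). Comparing the lines, 3 assembly factors were higher and 1 lower in ERalphaKO-labelled brains, 5.71% beside 15.3% of all genes. Those higher were Riok1, Rrp1b and Nob1, by 0.34, 0.40 and 0.285. Of 15 genes of RNA polymerase I, which makes ribosomal RNA, none was called against wild type. Taf1c was higher by 0.445 and Taf1b lower, at −0.27, in ERalphaKO-labelled than in ERbetaKO-labelled brains (13.3%). Of 22 genes around mTOR and S6 kinase 2 were higher in ERalphaKO-labelled brains, Tsc1 and Larp4 at 0.30 each, and 3 were lower in ERbetaKO-labelled brains. The latter were led by Rps6kb2, an S6 kinase, with 509 ± 48.8 in wild type, 557 ± 38.7 in the ERalphaKO-labelled and 371 ± 20.7 in the ERbetaKO-labelled arrays (SD, n = 6; −0.39 ± 0.072, limma adjusted p = 0.00543). Tsc2 and Eif4ebp2 followed at −0.28 and −0.37. Rps6kb2 and Larp4 were higher in ERalphaKO-labelled than in ERbetaKO-labelled brains, by 0.51 and 0.26 (9.09% of this list).

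Of 20 other genes with a terminal oligopyrimidine tract 2 were lower in ERalphaKO-labelled brains, Tpt1 at −0.48 and Eef1a1, and 1 in ERbetaKO-labelled brains, Eef2. Eif3k, Snhg1 and Vim were higher in ERalphaKO-labelled than in ERbetaKO-labelled brains, 15% of this list beside 15.3% of all genes. Of 11 genes of the p53 response 2 were higher in ERalphaKO-labelled brains, Btg2 at 0.52 ± 0.10 and Trp53inp1 at 0.39 ± 0.084 (limma adjusted p = 0.00883 and 0.0146). In ERbetaKO-labelled brains 1 was, Btg2 at 0.57 ± 0.10 (limma adjusted p = 0.00515). Sesn2 and Trp53inp1 were higher in ERalphaKO-labelled than in ERbetaKO-labelled brains, by 0.66 and 0.31 (18.2% of this short list). Of the 76 mitochondrial ribosomal proteins 1 was higher and 3 lower in ERalphaKO-labelled brains, and 5 were lower in ERbetaKO-labelled brains, led by Mrpl46 at −0.46 ± 0.072 (limma adjusted p = 0.00216). Their medians were −0.034 and −0.047. Comparing the lines, 7 of them were higher and 3 lower in ERalphaKO-labelled brains (13.2%), with a median of 0.027.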

How the data were processed

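Whole-brain RNA from 18 samples was hybridised to 1-colour Affymetrix arrays. The deposited table holds linear intensity values, called MAS5 signal in the submitters' processing notes, with no version given; the authors scaled every array to a 2% trimmed mean of 500.002. Of 45101 probe sets, 64 controls were left out. The platform annotation named 1 gene for 34945 of the rest, while 932 had several symbols and 9160 had none; gene IDs updated 34741 of the names and old symbols 202.

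Tests used log2(signal + 63.63), which understates differences of dim genes; the added 63.63 is the 25th percentile over all arrays. Genes at or above the 40th percentile were tested with limma 3.58.1 in R 4.3.3, with 1 mean for each of 6 groups, an intensity trend and 12 residual degrees of freedom. The fit was tested on simulated data. Detection calls were not used. Precision is limited by the number of arrays.

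The members, gene lists and tests were chosen with earlier results of these data known. Named members were the stalk proteins, Rpsa, Rpl11, Rps6, Rps4x, Rpl38, Rps25, Rpl22, Rps27, Rpl41 and the paralogs in any case. To these were added up to 10 called members per direction and comparison (or the 3 with the smallest p where fewer than 3 were called), the member with the smallest p per interaction, and up to 3 called genes per other list and comparison. Alternatives were other pseudocounts, filters, scalings and probe set choices, no trend, array weights, fewer groups, covariates, a block by replicate number, and leaving out single arrays. Promoters came from RefSeq, GRCm38.p6. Plots were made in Python 3.11.15 (matplotlib 3.10.9).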

Additional observations from a re-analysis of the deposited data

Results flagged for a closer look

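Of 66 groups of 6 arrays examined for the named ribosomal protein genes, 5 held 1 array far from the other 5, and chance flags about 1 in 20. The highest ERbetaKO-labelled value of Rplp2 was 8899.9, with the next at 7406. The highest wild type value of Rpl41 was 15376, with the next at 11926; both of these came from a male 3 array, on which bright genes in general were high. The highest ERalphaKO-labelled value of Rpl39 was 898, with the next at 733. That of Rps19bp1 was 557, with the next at 445. That of Rpl3l was 44.7, with the next at 17.2, both under the pseudocount of 63.63. The ERalphaKO-labelled values of Rpl39, Rps19bp1 and Rpl3l were also those of male 3. All 5 flagged values therefore lay on male 3 arrays, and the reason was not tested.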

How the results depend on the processing

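The calls of Rps27l and Rps4l between the lines passed in all 34 alternatives; no named value that was called changed direction. In ERalphaKO-labelled against wild type brains the 4 called members became 8 with quantile normalization (7 higher, 1 lower; median difference 0.042 in place of −0.106), 7 with array weights, 1 with median scaling, 1 without a filter, and 0 with the mean over probe sets, with arrays of Pcp2 at 500 or more, or with the Actb ratio in the model. The 1 call in ERbetaKO-labelled brains became 3 with median scaling, 2 with array weights, and 0 with the mean over probe sets, with only the genotypes compared, or with arrays of Pcp2 at 500 or more, where the median was 0.048 in place of −0.103. Between the lines the 4 calls became 10 with quantile normalization (8 higher, 2 lower), 9 with array weights (6 and 3), and 2 without a filter, without the trend or with the Actb ratio. With quantile normalization 2.81% of all genes were called higher and 3.61% lower in ERalphaKO-labelled against wild type brains. Between the lines 6.35% of all genes were then higher and 8.7% lower. For the other fits counted here and below, the share of all genes called was not worked out. Their counts therefore cannot tell a change in the members from one over the whole array. The causes were not tested. Leaving out each array gave 0 to 8, 0 to 4 and 2 to 7 calls and medians of −0.148 to −0.064, −0.17 to −0.042 and −0.084 to 0.008. The highest counts against wild type came without ERbetaKO-labelled male 3 (8 and 4), and the 7 without ERalphaKO-labelled male 3; 0 calls in ERalphaKO-labelled brains came without wild type female 1 or male 3 or ERalphaKO-labelled female 2, female 3, male 1 or male 2. In ERbetaKO-labelled brains 0 came without wild type female 2, male 1 or male 2 or ERbetaKO-labelled female 3, male 1 or male 2. Limits are the 6 arrays per genotype, dim or shared probe sets and, for genes under the pseudocount, signal near background.

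With the replicate number as a block the calls were 4, 1 and 5; between the lines Rpl41 and Rps14 (named after its value was seen) gained a call and Rplp0 lost it. Same-numbered samples of different groups correlated at a median of 0.0199 (45 pairs, 15 over 0.1) and others at −0.0106. These pairs mix females with males, so they cannot decide whether the numbers pair samples within a sex, which was not tested. Male 3 had the highest median deviation of the members in every genotype. It was 0.208 for wild type, 0.034 under the ERalphaKO label and 0.182 under the ERbetaKO label. The highest female was female 3 in wild type and female 1 under both knockout labels.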
